A study of Mus musculus with 2 samples.

Results

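The genes described here are the protein-coding Hox genes of the mouse, 39 of 21938 protein-coding genes annotated on chromosomes 1 to 19, X and Y. They were taken by symbol, as Hoxa, Hoxb, Hoxc or Hoxd followed by a number, which gave 11 genes in the HoxA cluster, 10 in HoxB, 9 in HoxC and 9 in HoxD. Chromatin was probed with DNase-seq, a method where DNase I cuts exposed DNA and the cut sites are sequenced. The material was whole heart tissue of newborn B6NCrl mice (postnatal day 0), with no treatment, allele or control group named in the labels. There were 2 libraries, labelled biological replicates 1 and 2 and tied to the same donor label, and the sex was not recorded. With 1 group of 2 libraries there was no contrast to test, so all results are values and counts set beside the rest of the genome.

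Hox genes encode homeodomain transcription factors that give cells their position along the body axis. They lie in 4 clusters, and genes with the same number in different clusters, called paralogues, descend from a common ancestor. Low numbers are used towards the head and high numbers towards the tail and the ends of the limbs. Polycomb complexes keep the clusters silent where they are not used, Trithorax complexes keep active parts open, and retinoic acid switches on the low-numbered end. In the embryo, Hoxb1 and Hoxa3 are known from the second heart field, a pool of progenitors that builds the outflow tract and part of the atria.

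The sequences shown first are those on which the promoter results turn. Hoxb5 and Hoxc5 are paralogues from a group in which every gene had a promoter peak, and Hoxa4 had a peak in one of the most CpG-rich promoters of the family. For these, the bases common to the peaks of both libraries are printed on the strand of the gene, and capitals mark each CG pair.
Hoxb5: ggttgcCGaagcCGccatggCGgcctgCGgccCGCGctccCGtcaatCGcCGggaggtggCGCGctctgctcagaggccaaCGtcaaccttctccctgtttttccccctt
Hoxc5: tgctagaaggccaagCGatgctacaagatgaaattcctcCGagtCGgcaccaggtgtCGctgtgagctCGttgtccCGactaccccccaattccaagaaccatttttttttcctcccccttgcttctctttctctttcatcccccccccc
Hoxa4: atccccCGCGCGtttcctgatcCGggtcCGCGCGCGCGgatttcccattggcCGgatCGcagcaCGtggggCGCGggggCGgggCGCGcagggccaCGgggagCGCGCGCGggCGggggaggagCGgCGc
The stretch of Hoxb5 was 110 bases (chr11:96303196-96303305, plus strand, mm10) with 12 CG pairs, and that of Hoxc5 was 150 bases (chr15:103013656-103013805, plus strand) with 6. The stretch of Hoxa4 was 130 bases (chr6:52191876-52192005, minus strand) with 25 CG pairs. All 3 lie upstream of a start of their gene, outside exons of coding transcripts.

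Beside them stand 2 promoters with no peak, those of Hoxd13 and Hoxa13, which pattern the digits and the urogenital tract. The 150 bases just before the RefSeq start are printed, with CG pairs in capitals. RefSeq promoter sequences of build GRCm38.p6, whose primary sequence is that of mm10, were found for 22 of the 39 genes.
Hoxd13: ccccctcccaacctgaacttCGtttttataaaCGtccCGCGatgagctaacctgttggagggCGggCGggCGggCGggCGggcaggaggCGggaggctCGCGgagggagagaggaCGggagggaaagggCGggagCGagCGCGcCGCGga
Hoxa13: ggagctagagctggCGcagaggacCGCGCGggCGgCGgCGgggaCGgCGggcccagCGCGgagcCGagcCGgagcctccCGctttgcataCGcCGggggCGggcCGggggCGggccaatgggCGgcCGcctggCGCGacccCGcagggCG
The Hoxd13 stretch (chr2:74668075-74668224, plus strand) held 19 CG pairs and the Hoxa13 stretch (chr6:52260881-52261030, minus strand) held 25. Both counts were above those of Hoxb5 and Hoxc5, but not above that of Hoxa4, with 25 CG pairs in 130 bases. The printed promoters without a peak were thus not richer in CG pairs than all those with one.

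Most Hox promoters had no open chromatin peak in the newborn heart. A promoter peak is a peak of 150 bp whose centre lay within 500 bp of an annotated transcription start site (TSS) of the gene. In both libraries, 11 of 39 Hox genes (28.2%) had one, beside 63.7% of all protein-coding genes. A further 4 genes had one in replicate 1 only, none in replicate 2 only, and 24 (61.5%) in neither. In either library, 15 Hox starts were marked, beside 67.5% of all protein-coding genes. Replicate 1 gave 15 Hox genes (background 66%) and replicate 2 gave 11 (background 65.2%). Replicate 1 also had more peaks in all, 164657 against 144708, and what this contributed to the 4 genes was not tested. Cutting the lists to an equal number of peaks drops only the weakest peaks of replicate 1. The 11 genes stood at percentile 45.8 or higher among all peaks there, so that cut could not remove any of them. The peaks of the 4 genes stood at percentile 39.3 (Hoxb2 and Hoxb9), 36.9 (Hoxb3) and 8.31 (Hoxc9) of all replicate 1 peaks. In bulk tissue, a site open in few cells and a site weakly open in many cannot be told apart.

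**Figure D1:**
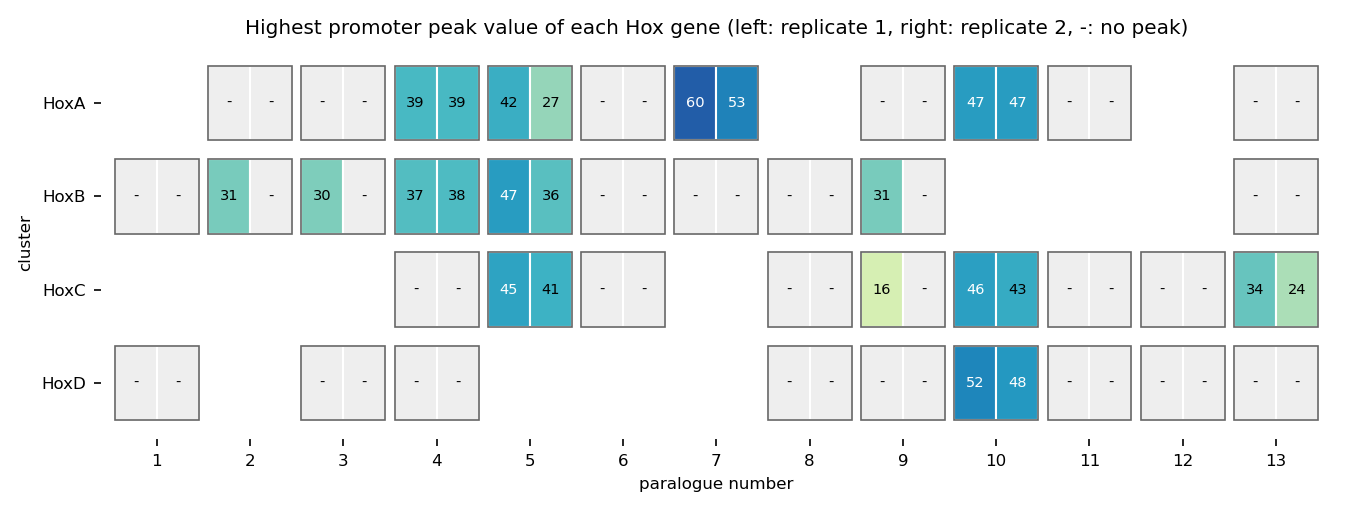
Highest promoter peak value of each Hox gene, by paralogue number (horizontal) and cluster (vertical), with replicate 1 in the left and replicate 2 in the right part of each box, darker for higher values. A dash stands for no promoter peak and an empty place for a gene that the cluster does not have or that is not shown; the columns of groups 5 and 10 are filled in every cluster that has the gene.

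By cluster, the counts of genes with a promoter peak in both libraries were 5 of 11 in HoxA, 2 of 10 in HoxB, 3 of 9 in HoxC and 1 of 9 in HoxD. In replicate 1 alone they were 5, 5, 4 and 1, so HoxA stood above HoxB in replicate 2 only, while HoxD was lowest in both libraries. Among the low-numbered genes of groups 1 to 3 it was 1 of 8, in groups 4 to 8 it was 6 of 15, and in groups 9 to 13 it was 4 of 16. In replicate 1 alone these counts were 3, 6 and 6, or 37.5%, 40% and 37.5%, so the difference between the groups of numbers rested on replicate 2. Groups 5 and 10, which were singled out after their values were seen, had a peak in both libraries at all of their genes, 3 of 3 each. Groups 6, 8, 11 and 12 had no promoter peak in either library at any of their 3, 3, 3 and 2 genes.

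Among the genes of groups 1 to 3, most starts were unmarked or marked in a single library. The peak value is the authors' signal value, a whole number without stated normalization, so values are read within a library. Hoxb2, which acts in the hindbrain, had a peak of 31 in replicate 1 only, at its inner TSS. Hoxb3 had one of 30 in replicate 1 only, also at an inner TSS. A further 5 genes had none in either library, among them Hoxb1 and Hoxa3. Hoxb1 was the Hox gene farthest from any peak, at 11801 bp in replicate 1 and 17421 bp in replicate 2.

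In groups 4 to 8 the highest promoter value of all Hox genes was found, at Hoxa7. Its peak had the value 60 in replicate 1 and 53 in replicate 2, centred 83 bp inside the gene. Hoxa4 had 39 in both libraries. Hoxa5, which is needed for lung and airway development, had 42 and 27, so the libraries differed more here (34.5 ± 10.6, SD, n = 2) than at Hoxa7 (56.5 ± 4.95, SD, n = 2). Hoxb4, known for its effect on blood stem cells, had 37 and 38, with its peak 384 and 404 bp inside the gene. Hoxb5 had 47 and 36. Hoxc5 had 45 and 41, at an inner TSS, since its longest transcript starts next to Hoxc10. These 6 genes were all above 25 in both libraries. The other 9 genes of groups 4 to 8, Hoxa6, Hoxb6, Hoxb7, Hoxb8, Hoxc4, Hoxc6, Hoxc8, Hoxd4 and Hoxd8, had no promoter peak in either library.

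In groups 9 to 13, the 3 genes of group 10 had close values. Hoxa10, which patterns the uterus and the hindlimb, had 47 in both libraries, centred 264 and 244 bp downstream of a TSS. Hoxc10 and Hoxd10 act in the lumbar spinal cord and the hindlimb. Hoxc10 had 46 and 43, and Hoxd10 had 52 and 48. Hoxc13, which is needed for hair and nails, had lower values, 34 and 24. Hoxb9 had a peak of 31 in replicate 1 only, 428 bp downstream of a TSS, and Hoxc9, which defines thoracic motor neurons, had one of 16 in replicate 1 only, the lowest of all. The remaining 10 genes, Hoxa9, Hoxa11, Hoxa13, Hoxb13, Hoxc11, Hoxc12, Hoxd9, Hoxd11, Hoxd12 and Hoxd13, had none. In each of the 11 genes with a peak in both libraries, the peaks of the libraries overlapped.

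The window of 500 bp decided few of these calls. Just inside it lay Hoxb4, at 384 and 404 bp, and Hoxb9, at 428 bp. Just outside lay Hoxd3, a gene of the neck vertebrae, whose nearest peak was centred 552 bp from an inner TSS in replicate 1 and 512 bp in replicate 2. Hotspots, the authors' wider regions of enriched cutting, were counted at a TSS when at least 1 bp fell in the window. By this count 12 Hox genes were marked in both libraries, with a background of 64.5%, the additional gene being Hoxd3. Counting only the 5′-most TSS of each gene gave 10 of 39, with a background of 57.6%, the gene lost being Hoxc5.

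Where a Hox promoter had a peak, it was a weak one for a promoter. Among all protein-coding genes with a promoter peak, the highest peak per gene had a median value of 88 in replicate 1 and 84 in replicate 2, with lower quartiles of 61 and 59. For Hox genes the medians were 42 (15 genes) and 41 (11 genes). All 15 and all 11 values lay below the lower quartile of the library. The highest, that of Hoxa7, stood at percentile 24.1 and 20.9 of gene promoters. Against all peaks of a library, promoter or not, the Hox values were not low, since the median over all peaks was 36 and 35. The hotspots at Hox starts were narrow as well, with a median width of 221 and 238.5 bp, beside 669 and 693 bp for all protein-coding genes. The highest −log10 q that the hotspot lists give, 100, was reached by 6 of 16 and 6 of 12 Hox hotspots and by 82.8% and 80.3% of those at all protein-coding genes.

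**Figure D2:**
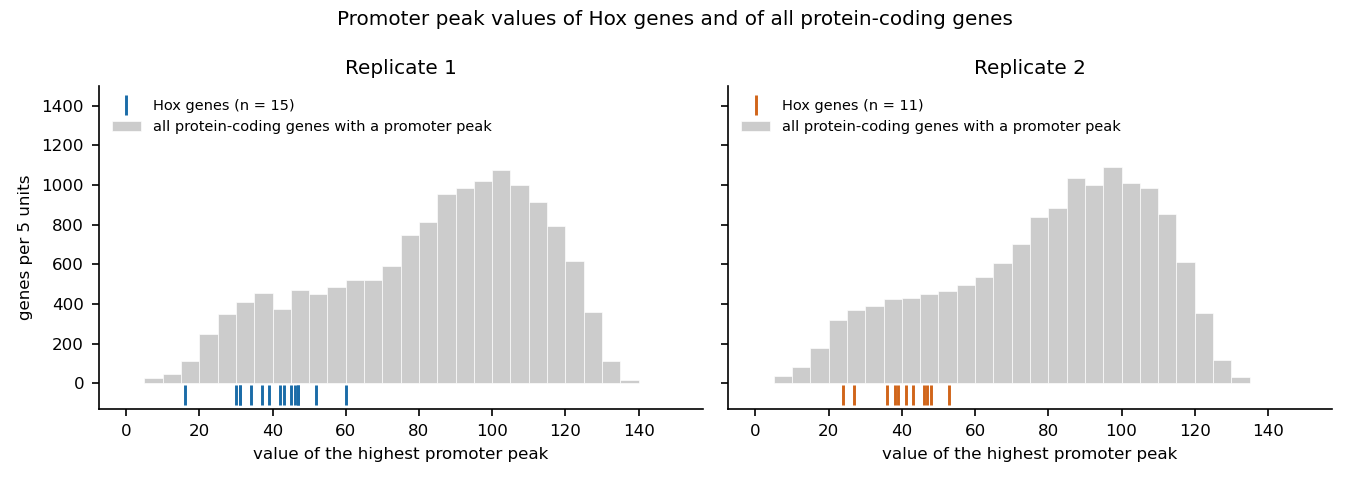
Number of protein-coding genes (vertical) by the value of the highest promoter peak in steps of 5 (horizontal, the authors' signal value), for replicate 1 on the left and replicate 2 on the right, with 1 coloured tick per Hox gene. The Hox ticks lie between 16 and 60 in replicate 1 and between 24 and 53 in replicate 2, left of the bulk of the genes.

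The Hox genes without a promoter peak mostly had one within a few kb. Their nearest peak was at a median of 3340 bp in replicate 1 (24 genes, 552 to 11801 bp) and 3908.5 bp in replicate 2 (28 genes, 512 to 17421 bp). For all protein-coding genes without a promoter peak the medians were 12087.5 and 12768 bp. The starts without a promoter peak thus lay inside clusters that held peaks elsewhere.

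Most Hox genes without a promoter peak had CpG-rich starts. CpG observed over expected, the number of CG pairs relative to that expected from the C and G content within 500 bp of the 5′ TSS, had a median of 0.678 for Hox genes and 0.552 for all protein-coding genes. The median was 0.645 for the 11 genes with a peak in both libraries, 0.490 for the 4 with a peak in replicate 1 only and 0.703 for the 24 without one. Peaks were counted at any TSS, here and in the deciles below. At Hoxb2, Hoxb3 and Hoxc5 the peak lay at an inner TSS, so their ratio is that of another start. All genes were ranked by this ratio and split into deciles. Below decile 6, a peak in both libraries was found at 0 of 1 Hox gene in decile 3, 0 of 3 in decile 4 and 1 of 4 in decile 5, beside 30.4%, 46.2% and 71.2% of all genes there. In deciles 6 to 10, 10 of 31 Hox genes had a peak in both libraries, beside 92.7% of all protein-coding genes there. In deciles 8 to 10, which were computed first, it was 3 of 12, beside 95.3%. Of the 539 genes of deciles 6 to 10 with no promoter peak in either library, 19 were Hox genes (3.53%). Hoxa4 and Hoxa5 were the genes of decile 10 with a peak in both libraries, and Hoxa13, Hoxc12 and Hoxd13 were those with none.

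**Figure D3:**
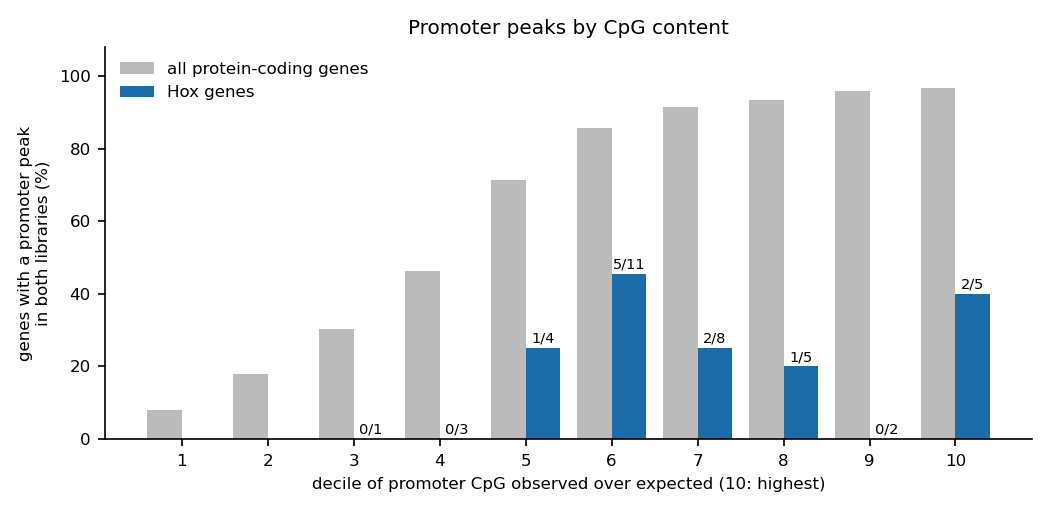
Share of genes with a promoter peak in both libraries (vertical, percent) by decile of promoter CpG observed over expected (horizontal, 10 highest), for all protein-coding genes in grey and Hox genes in blue, with the Hox count above each bar. Among all genes the share reached 96.6% in decile 10, where 2 of 5 Hox genes had a peak.

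Across whole clusters, peaks were not rare. From the first to the last base of its Hox genes, HoxA spans 105.291 kb (chr6:52155590-52260880), HoxB 173.941 kb (chr11:96194316-96368256), HoxC 115.75 kb (chr15:102921103-103036852) and HoxD 96.833 kb (chr2:74668310-74765142). They held 57 peaks in replicate 1 and 41 in replicate 2. The density was 1.23 ± 0.403 peaks per 10 kb in HoxA, 1.06 ± 0.285 in HoxB, 0.778 ± 0.122 in HoxC and 0.878 ± 0.0730 in HoxD (SD, n = 2 each). In the 100 kb to either side it was 0.4 for HoxA, 0.7 for HoxB, 0.575 for HoxC and 0.425 for HoxD, and over all analysed chromosomes it was 0.604 in replicate 1 and 0.531 in replicate 2. Every cluster lay above its flanks and above the genome in both libraries, and HoxA showed both the highest density and the largest gap between libraries.

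**Figure D4:**
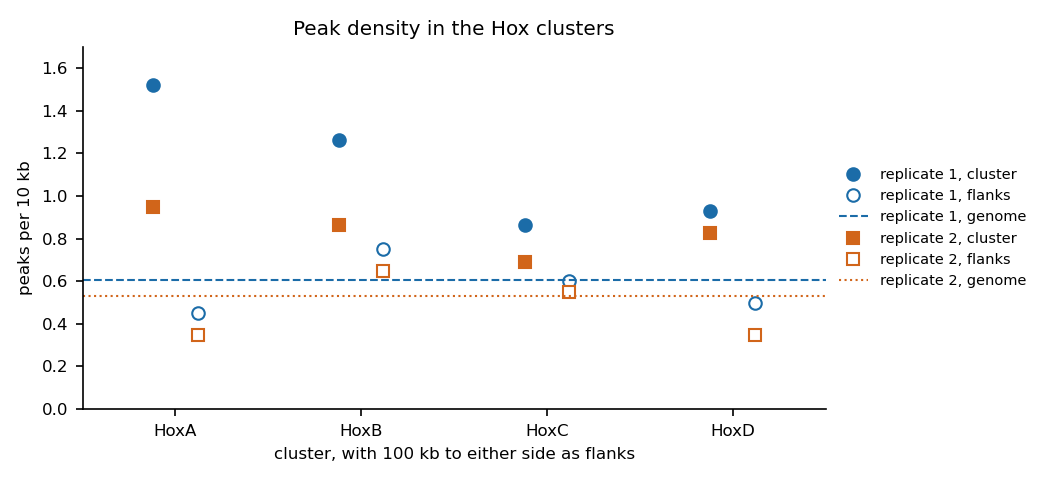
Peaks per 10 kb (vertical) in each Hox cluster (filled) and in the 100 kb to either side of it (open), for replicate 1 (blue circles) and replicate 2 (orange squares), with the density over all analysed chromosomes as a dashed and a dotted line. In both libraries the filled point lies above the open point of the same cluster and above the line.

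The share of bases covered by hotspots was also above the flanks in every cluster. Hotspots covered 2.63 ± 0.418% of HoxA, 2.09 ± 0.188% of HoxB, 1.94 ± 0.227% of HoxC and 1.91 ± 0.143% of HoxD (SD, n = 2 each). The flanks were at 0.881%, 1.67%, 1.24% and 1.44%, and the genome at 1.62% in replicate 1 and 1.49% in replicate 2. Most of each cluster was therefore outside any hotspot. The widest hotspot in HoxA was 346 bp in replicate 1, at the start of Hoxa7, and 379 bp in replicate 2, at the transcript 9530018H14Rik next to Hoxa13. In HoxB it was 300 bp between Hoxb9 and Hoxb8 and 359 bp at the microRNA gene Mir10a. In HoxC it was 425 bp upstream of Hoxc10 in replicate 1 and 420 bp at the inner start of Hoxc5 in replicate 2. In HoxD it was 320 bp upstream of Hoxd8 in replicate 1 and 301 bp in replicate 2, where the site upstream of Hoxd8 and that at Hoxd3os1 had the same width.

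Peaks of both libraries that overlapped were joined to sites, 62 in the 4 clusters, of which 36 were found in both libraries, 21 in replicate 1 only and 5 in replicate 2 only. Overlapping peaks of a single library stayed separate sites, as near Hoxa5 and in an exon of Hoxb2 in replicate 1. Those places enter the counts and densities more than once. The shared peaks were 63.2% of the cluster peaks of replicate 1 and 87.8% of those of replicate 2, beside 70.1% and 79.8% of all peaks. Sites found in 1 library were weaker, with a median value of 28 in replicate 1 and 24 in replicate 2, against 46.5 and 42 for shared sites. In raw value, which has no stated normalization between libraries, 25 of the 36 shared sites were higher in replicate 1, 9 in replicate 2, and 2 were equal.

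Most shared sites were not Hox promoters. Only 10 of the 36 were, while 5 lay at a TSS of another gene, 2 in exons, 10 in introns and 9 between genes. The promoter peak of Hoxc13 is not among them, as it lies just outside the cluster limits. The 26 other sites had a median value of 50 in replicate 1 and 43 in replicate 2, and the 10 promoter sites one of 45.5 and 42, so the sites away from Hox starts were not weaker.

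**Figure D5:**
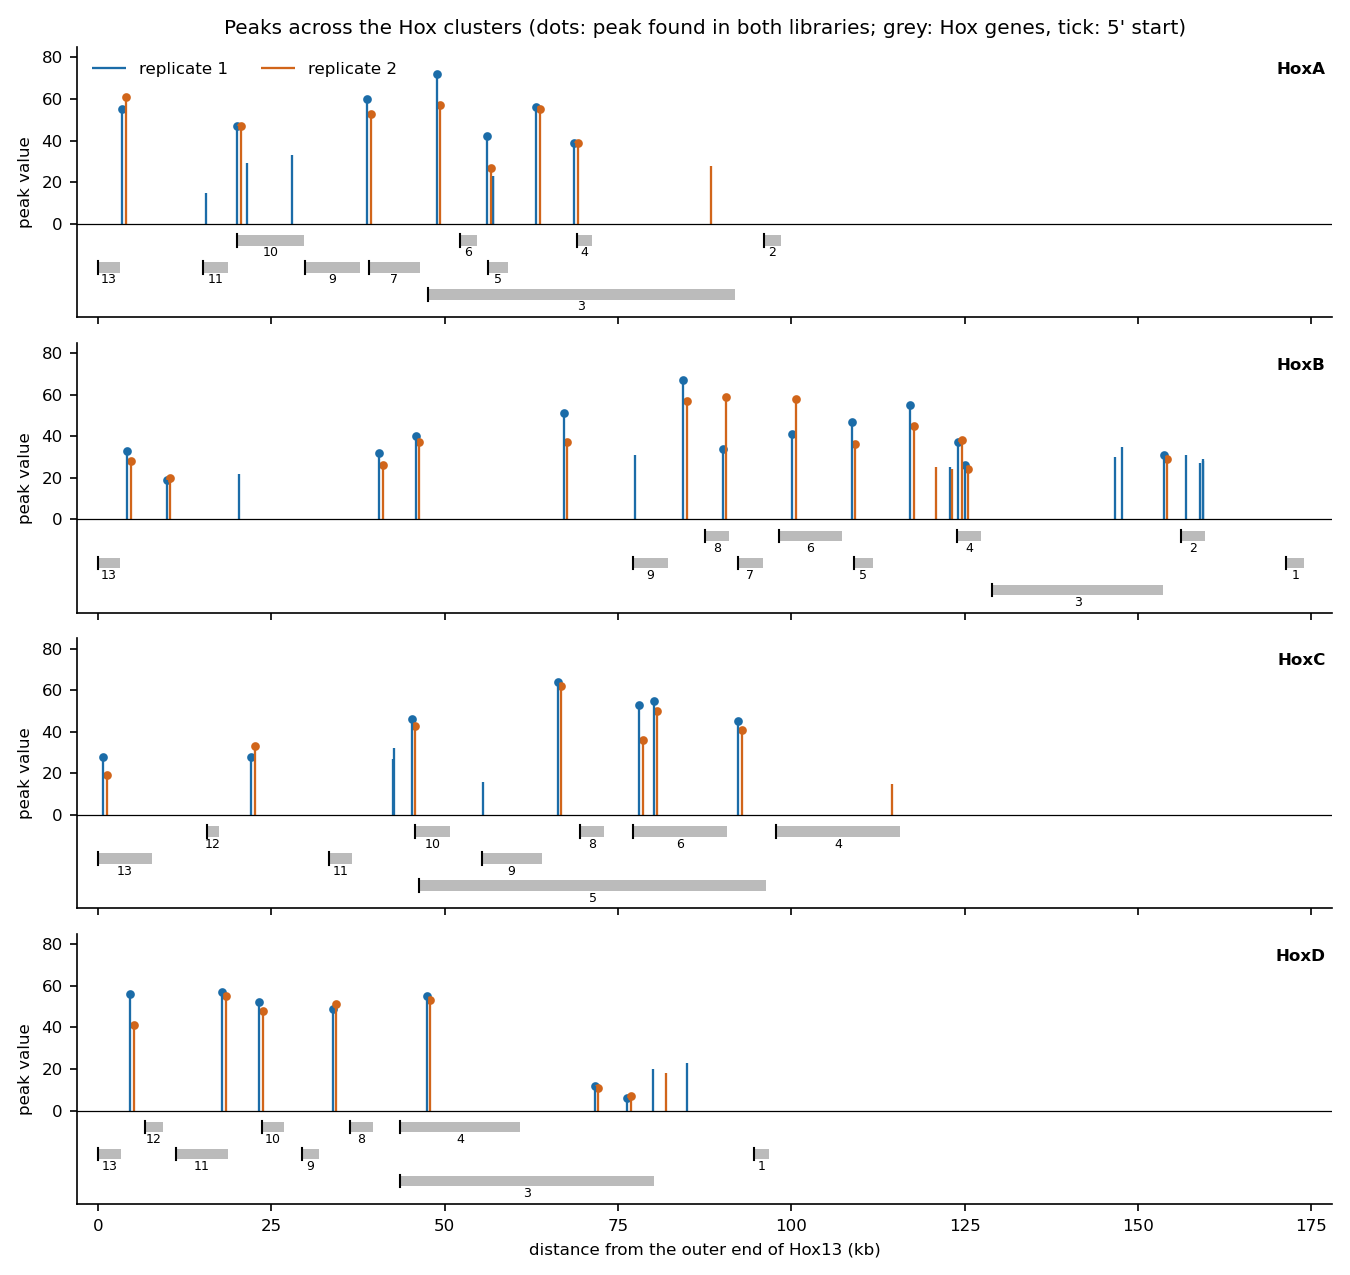
Peak values (vertical, the authors' signal value) along the 4 Hox clusters (horizontal, kb from the outer end of the Hox13 gene), as blue lines for replicate 1 and orange lines for replicate 2, drawn slightly apart, with a dot where the peak was found in both libraries. The stretch beyond Hoxa2 is not drawn. Grey bars are the Hox genes with their paralogue number and a black tick at the 5′ start; the group of peaks between Hoxb9 and Hoxb4 and the gap over the start of Hoxb3 can be read from the HoxB row.

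The strongest of these sites, by mean value, was in HoxA between Hoxa6 and Hoxa7. It is shown because it exceeded every Hox promoter in value, with CG pairs in capitals.
Hoxa6 to Hoxa7 site: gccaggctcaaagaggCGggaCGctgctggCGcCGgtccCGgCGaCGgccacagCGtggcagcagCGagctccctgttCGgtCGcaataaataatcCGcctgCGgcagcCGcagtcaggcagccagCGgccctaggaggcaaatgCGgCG
Its value was 72 in replicate 1 and 57 in replicate 2 (chr6:52211676-52211825, plus strand). It lies in introns of the long transcripts of Hoxa3, 1364 bp from a Hoxa3 TSS, and holds 17 CG pairs at a GC content of 69.3%. In both libraries its value was above the median promoter value of Hox genes.

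The next sites away from any TSS were found in all 4 clusters. In HoxC, a site in an intron of the long Hoxc5 transcript, 2976 bp upstream of Hoxc8, had 64 and 62. In HoxB, the site between Hoxb9 and Hoxb8, 2934 bp upstream of Hoxb8, had 67 and 57. In HoxD, a site in an exon of Hoxd11, a gene that shapes the forearm, had 57 and 55. The promoter windows of Hoxc8, Hoxb8 and Hoxd11 were themselves without a peak. In HoxA, an intronic site 5698 bp upstream of Hoxa4 had 56 and 55, and in HoxC, an intronic site of Hoxc6 had 55 and 50. The values of the libraries lay within 2 of each other at the Hoxc8, Hoxd11 and Hoxa4 sites and further apart at the others.

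HoxB had the 2 shared sites that were most in favour of replicate 2. The site in an exon of Hoxb8 had 34 in replicate 1 and 59 in replicate 2, and that in an intron of Hoxb6 had 41 and 58. Among all peaks of each library, the Hoxb8 site stood at percentile 45.8 in replicate 1 and 81.1 in replicate 2, and the Hoxb6 site at 58.7 and 80.3. In raw value, most shared sites of HoxB and of the other clusters were higher in replicate 1, unlike these. What scale or depth contributed to such differences between libraries was not tested.

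In HoxD, peaks were high from Hoxd13 to Hoxd4 and low beyond. The sites upstream of Hoxd12, at Hoxd11, Hoxd10, upstream of Hoxd8 and at Hoxd3os1 had values of 49 to 57 in replicate 1 and 41 to 55 in replicate 2. Then followed the longest stretch of the cluster without a peak in either library, 24.16 kb with TSSs of Hoxd3 and Hoxd4 inside. Beyond it, the 2 shared sites in introns of Hoxd3 had 12 and 11 and 6 and 7. The first of these lay in hotspots with the highest −log10 q of 100 in both libraries, and only 3.54% and 3.74% of peaks in such hotspots had values this low. The longest such stretches in the other clusters were 19.18 kb in HoxA, 21.58 kb in HoxB and 21.6 kb in HoxC, measured between peak centres. The HoxA stretch held starts of Hoxa3 and ended at the promoter peak of Hoxa4. In HoxB it held starts of Hoxb3 and ended at the replicate 1 peak of its inner TSS. The HoxC stretch held starts of Hoxc4 and began at the promoter peak of Hoxc5.

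Hox clusters are known to be divided by sites of the insulator protein CTCF, so CTCF letters were looked for on both strands of the 36 shared sites. The CTCF core, written here as CC, any 3 bases and AGGGGGC and so with a single form of its variable bases, was in 0 of 36, beside 1.71% of all peaks of replicate 1 and 2.03% of replicate 2. The shorter AGGGGGC, which is part of that core, was also in 0 of 36, beside 5.23% and 5.76%. A relaxed core, in which the third and the fourth letter of AGGGGGC may be any base, was added after these zeros were seen. It includes the first core and was in 8 of 36 (22.2%), beside 9.43% and 10.8%. These were the promoter sites of Hoxa7, Hoxa10 and Hoxb5, the sites at Gm53 and between Hoxb9 and Hoxb8, the sites upstream of Hoxd12 and at Hoxd3os1, and the low site in Hoxd3. The 36 are shared sites, while the background takes all peaks of a library, shared or not. Over all cluster peaks of replicate 1 and replicate 2, the shorter core was in 3.51% and 0%. The relaxed core was in 14% and 19.5% of them. A match is a description of the letters and does not show that CTCF was bound.

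Of the sites with a relaxed match, 3 away from Hox promoters are shown, with the match in capitals on the plus strand of the genome.
Hoxb9 to Hoxb8 site: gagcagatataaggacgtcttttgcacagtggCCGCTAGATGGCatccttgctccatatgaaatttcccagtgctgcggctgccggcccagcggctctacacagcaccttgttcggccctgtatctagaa
Hoxd13 to Hoxd12 site: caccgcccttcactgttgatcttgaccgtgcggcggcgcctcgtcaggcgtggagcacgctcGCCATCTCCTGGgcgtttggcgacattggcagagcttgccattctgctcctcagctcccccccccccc
Hoxd3os1 site: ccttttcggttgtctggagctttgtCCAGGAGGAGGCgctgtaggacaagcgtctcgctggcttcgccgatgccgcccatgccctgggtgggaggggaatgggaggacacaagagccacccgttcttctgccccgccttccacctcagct
The first (chr11:96278916-96279045) had 67 and 57, the second (chr2:74673116-74673245) 56 and 41 and the third (chr2:74715896-74716045) 55 and 53. The match in the second is on the minus strand, so the capitals there are its reverse complement. The first 2 are between genes and the third is at a start of the antisense transcript Hoxd3os1.

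Letters of other factors were found in few of the sites. A PBX-HOX form, TGATTNAT, was in 0 of 36 sites (1.29% and 1.26% of all peaks), and MEIS, TGACAG, was in 3 (13.5% and 13.4%). AGATAA, bound by GATA factors, was in 2 (8.47% and 7.98%), and the MEF2 motif in 0 (0.602% and 0.608%). TEAD, GGAATG, was in 4, or 11.1% (10.9% and 11%), AP-1, TGANTCA, in 3, or 8.33% (7.25% and 7.17%), and the E-box CAGCTG in 1 (13% and 13.2%). With 36 sites, these counts are small. The background again takes all peaks of a library, shared or not. Over all cluster peaks of replicate 1 and replicate 2, PBX-HOX was in 1.75% and 0%, MEIS in 8.77% and 7.32% and GATA in 8.77% and 4.88%. TEAD was in 10.5% and 9.76% of them, AP-1 in 5.26% and 7.32% and the E-box in 7.02% and 2.44%.

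The genes that work with or on Hox genes mostly had promoter peaks, unlike the Hox genes themselves. So did 92.7% of all protein-coding genes of CpG deciles 6 to 10, where most genes of these lists lie. The counts are therefore not a trait particular to these lists. All 9 Hox cofactor genes of the PBX, MEIS and PREP families, whose proteins bind DNA together with Hox proteins, had promoter peaks in both libraries, beside the 63.7% of all protein-coding genes. Pknox1 had 119 and 117 and Meis1 had 104 and 110, and the lowest was Meis3 with 38 and 48. Of Polycomb genes, 11 of 11 for complex 2 and 19 of 19 for complex 1 had a peak in both libraries. All of them lay in CpG deciles 5 to 10, where the share over all protein-coding genes rose from 71.2% to 96.6%. Of Trithorax genes it was 9 of 11, the exceptions being Kmt2d, with 47 in replicate 1 only, and Kdm6b, a histone demethylase, with none. All 7 insulation genes had one, among them Ctcf with 103 and 100 and the cohesin gene Stag1 with 124 and 123.

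The retinoic acid list was near the background and the ParaHox list below it. Of 15 retinoic acid genes, 11 (73.3%) were marked at a start in both libraries, beside 63.7% of all protein-coding genes, with the receptor gene Rara at 121 and 118. The 3 genes for enzymes that break retinoic acid down were not among them, since Cyp26a1 had 21 in replicate 2 only, Cyp26b1 had 40 in replicate 1 only and Cyp26c1 had none. Crabp1, which codes for a binding protein, had 22 in replicate 1 only. Of 8 ParaHox and Evx genes, the closest relatives of the clusters, only Gsx1 (12.5%) had a peak in both libraries, with 53 and 57, and Gsx2, Pdx1, Cdx1, Cdx2, Cdx4, Evx1 and Evx2 had none.

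Of the first protein-coding genes outside the clusters, all but Evx1 and Evx2 had promoter peaks in both libraries, beside 63.7% of all protein-coding genes. For so few genes this is not far from that share. Their values spanned a wide range. On the HoxA side, Skap2 had 107 and 103, and Evx1 had none. Beside HoxB, Ttll6 had 37 and 43 and Skap1 had 12 and 16. Beside HoxC, Smug1 had 116 and 103 and Calcoco1 had 120 and 105. Beside HoxD, Mtx2 had 74 and 61, and Evx2 had none. Skap2, Smug1 and Calcoco1 were thus above 100 in both libraries, while no promoter value of a Hox gene exceeded 60.

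The labelled tissue was checked on marker promoters, beside the 63.7% of all protein-coding genes with a promoter peak in both libraries. Both libraries had peaks at 8 of 9 cardiomyocyte genes (88.9%), all 5 endothelial and all 5 fibroblast genes. At smooth muscle and epicardial genes it was 2 of 3 each (66.7%), which is near that background. The cardiomyocyte gene without one was Myl7. None of the 3 macrophage, 3 erythroid, 3 Schwann or 3 hepatocyte genes was marked at a start in both libraries. A missing peak in a mixed tissue does not show that a cell type was absent, and what cell type carried the Hox peaks was not tested.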

How the data were processed

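DNase-seq peaks and hotspots were called by the authors for each of the 2 libraries on its own, on mm10 per the labels. The sources used here do not give the aligner, the caller or their settings. Each deposited peak is 150 bp long and carries a signal value with no stated normalization. Each deposited hotspot carries a −log10 q, from 1.30 to 6 and then 100. The deposited score column of the hotspots was not used. Read totals were not given, so depth is unknown, no interval from counts was computed, and precision is the spread between 2 libraries.

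Chromosome lengths were checked against GRCm38.p6, and genes were taken from GENCODE vM21. Promoter peaks, hotspot overlap (at least 1 bp), densities, CpG ratios and motif matches were computed in Python 3.11.15 with pandas 2.3.3 and NumPy 2.4.6, after tests on simulated peaks. No p-value was computed. Every Hox gene entered the counts; the values of a few genes and 1 sequence are not reported here. The 6 strongest shared sites away from any TSS, the widest hotspots, neighbouring genes, and of each other list up to 3 of the highest and all without a peak in both libraries were named by rule. The members and lists were chosen with earlier results of these data known. The relaxed CTCF core, the CpG deciles 6 to 10, the other sites described and the printed sequences were chosen after values were seen. Alternatives were other windows, TSS sets, peak subsets, cluster limits and leaving out either library.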

Additional observations from a re-analysis of the deposited data

How the results depend on the processing

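The number of Hox genes with a promoter peak in both libraries ranged from 9 to 12 over the other windows and peak subsets, and from 11 to 15 with either library left out. The share of all protein-coding genes was 66% in replicate 1 alone and 65.2% in replicate 2 alone. It was not computed for the other windows and peak subsets. A window of 250 bp lost Hoxa10 and Hoxb4, the stronger 50% of peaks lost Hoxa5 and Hoxc13, and a window of 1000 bp, or any overlap with the window, added Hoxd3. Groups 1 to 3 then had 2 genes with 1000 bp and 2 by overlap in place of 1, and HoxD had 2 and 2 in place of 1. HoxB had 1 with 250 bp in place of 2. Leaving out 1 library gave 1 to 3 genes in groups 1 to 3 and 2 to 5 in HoxB, the higher counts being those of replicate 1 alone. The median Hox value of 41.5 became 42.3 with 250 bp and 39 with 1000 bp. Hotspots of the highest −log10 q alone marked 4 Hox genes in place of 12 and covered 1.31% of HoxA, 0.901% of HoxB, 1.23% of HoxC and 1.08% of HoxD. Over the genome, 34.3% of hotspots in replicate 1 and 31.7% in replicate 2 had that value. The share of all protein-coding genes and the coverage of genome and flanks were not computed for such hotspots alone. With 10 kb added to either side, coverage by all hotspots was 1.88% in HoxB and 1.61% in HoxD, and the density in HoxD was 0.770. The stronger 50% of peaks gave 0.431 peaks per 10 kb in HoxB, 0.432 in HoxC and 0.516 in HoxD, and shared shares of 93.8%, 100% and 100%. The genome and flank densities given above take all peaks. They were not computed for the stronger 50%, so the densities at this cut cannot be set beside them. The relaxed CTCF core gave 8 sites in place of 0. The cause of these changes was not tested beyond the change in the window or list itself. No paired analysis was possible because there is 1 group. Unknown depth limits what a missing peak shows.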

Other observations

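The clusters also hold other annotated genes, some with higher promoter peak values than the Hox genes beside them. At 9530018H14Rik, a transcript of uncertain status next to Hoxa13, the values were 55 and 61, and at Hoxd3os1, which runs opposite to Hoxd3 and Hoxd4, they were 55 and 53, while Hoxa13, Hoxd3 and Hoxd4 had no promoter peak. Gm53, between Hoxb13 and Hoxb9, had 51 and 37, and Hoxb3os had 31 and 29. These genes were named after their values were seen.

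Of the microRNA genes in the clusters, Mir10a, which lies before Hoxb4, had a peak within 500 bp in both libraries, with 25 and 24, but the peaks did not overlap. Mir10b, Mir196a-1, Mir196a-2, Mir196b and Mir615 had none. Hotair, the noncoding RNA of HoxC known for its link to Polycomb, had no promoter peak in either library.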
